A study of Caenorhabditis elegans with 2 samples.

Results

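The 10 genes described here were grouped as heterochromatin and other synMuv B genes outside the DREAM complex: hpl-1, hpl-2, met-2, lin-61, lin-65, arle-14, let-418, tam-1, lin-15B and lin-36. They were taken by name from 19973 nuclear protein-coding genes of the Ensembl WBcel235 annotation, and all 10 names matched 1 gene each. Binding of LIN-13, a zinc-finger protein of the same synMuv B class, was mapped by ChIP-seq in whole Caenorhabditis elegans larvae. The single group was strain OP49 at the L2 stage, of mixed sex and unstated age, with 2 biological replicates. Its genotype is unc119(ed3) with the transgene wgIs49, which holds lin-13::TY1 EGFP FLAG and an unc119 marker, and the whole organism was used, so the signal is a sum over all cells of the animal. The labels name the target of the ChIP as eGFP-lin-13 but the antibody as lin-13, and do not state whether the animals also had untagged LIN-13. How much tagged and untagged protein each gave to the signal therefore cannot be told apart, and no untagged or other strain is part of the comparison.

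SynMuv B proteins act together to keep vulval fate from cells that should not adopt it and to hold germline genes silent in the soma. In heterochromatin, MET-2 places methyl groups on lysine 9 of histone H3, and proteins of the HP1 and MBT families bind the methylated histone. LIN-13 is known as a partner of the HP1 protein HPL-2 and of the MBT protein LIN-61. The question addressed here is whether LIN-13 was enriched at the genes that encode its own class of factors.

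The data are lists of enriched places, each entry having a summit and a signal value made by the authors. A replicate 1 list, a replicate 2 list and a pooled list hold 30000 entries each, and a thresholded list holds the 3040 entries of the pooled list that were strongest. Rank 1 is the strongest entry of a list. The lists hold no read counts, so the depth of either replicate is unknown, and a gene with no entry is only one without a place among the 30000. The promoter window ran from 1000 bp upstream to 200 bp downstream of the outermost annotated start, and an entry was counted there when its summit fell inside.

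LIN-13 had a thresholded promoter entry at 1 of the 10 genes, lin-36, against 11.6% of all genes. In the pooled list the count was 6 of 10, against 36.3% of all genes. It was also 6 of 10 in the replicate 1 list and 6 of 10 in the replicate 2 list, against 38.6% and 36.0% of all genes. The genes with a promoter entry in all 3 of the longer lists were lin-36, arle-14, let-418, hpl-2 and met-2, whereas tam-1 had one in the pooled and replicate 2 lists and lin-15B in the replicate 1 list alone. At hpl-1, lin-61 and lin-65 the promoter window held 0 entries of any list. No test was made of these counts, which rest on 10 genes.

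**Figure D1:**
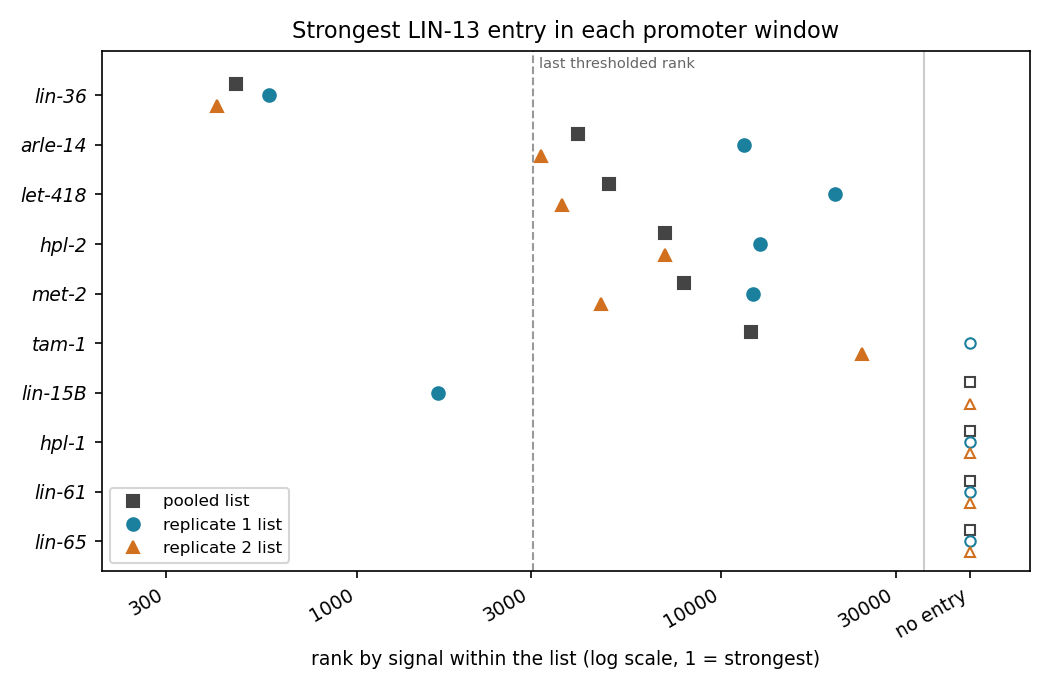
Rank of the strongest entry in the promoter window of each gene (horizontal, log scale, 1 is strongest) in the pooled list (squares), the replicate 1 list (circles) and the replicate 2 list (triangles); open symbols at the right are genes with no entry and the dashed line is rank 3040. The 3 symbols of lin-36 lie between 415 and 575, and lin-15B has a filled symbol only for replicate 1, at 1673.

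The sequences under the entries are shown first for the sites that the results turn on: the lin-36 entry, the entry listed for lin-15B in replicate 1 alone, and the strong entry upstream of the genes that precede hpl-2. The weaker sites at arle-14, let-418 and hpl-2 follow for comparison. All are from the RefSeq WBcel235 genome (ce11), 5′ to 3′ on the strand of the named gene, and capitals mark matches, on either strand, to any of the 6 motifs searched, which are spelled out with their shares after the sequences.
lin-36 entry, chrIII:8021060-8021189, minus strand: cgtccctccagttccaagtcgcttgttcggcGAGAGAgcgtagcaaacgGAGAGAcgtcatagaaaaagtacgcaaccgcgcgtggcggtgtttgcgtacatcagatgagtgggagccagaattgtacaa
lin-15B replicate 1 summit, chrX:15725120-15725270, plus strand: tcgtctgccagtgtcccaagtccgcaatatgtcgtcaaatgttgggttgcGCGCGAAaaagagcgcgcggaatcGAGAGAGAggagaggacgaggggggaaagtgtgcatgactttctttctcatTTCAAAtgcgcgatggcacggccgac
upstream of K01G5.10 and tasp-1, chrIII:10759156-10759306, minus strand: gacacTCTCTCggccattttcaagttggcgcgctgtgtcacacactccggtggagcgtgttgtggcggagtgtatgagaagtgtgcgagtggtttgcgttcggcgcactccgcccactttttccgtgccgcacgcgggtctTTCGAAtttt
between abi-1 and arle-14, chrIII:5692741-5692905, plus strand: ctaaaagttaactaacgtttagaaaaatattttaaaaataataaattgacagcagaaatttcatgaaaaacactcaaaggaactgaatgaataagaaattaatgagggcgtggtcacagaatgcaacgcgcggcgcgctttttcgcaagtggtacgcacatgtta
let-418 pooled summit, chrV:5825813-5825963, plus strand: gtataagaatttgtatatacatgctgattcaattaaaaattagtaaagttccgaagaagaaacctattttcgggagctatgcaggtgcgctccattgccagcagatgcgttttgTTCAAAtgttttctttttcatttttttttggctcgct
between rnf-113 and hpl-2, chrIII:10755531-10755623, minus strand: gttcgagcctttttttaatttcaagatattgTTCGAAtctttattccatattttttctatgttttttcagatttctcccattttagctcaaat

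GAGAGA, read on either strand like every motif here, stood in the first 3 of these sequences and in none of the last 3, of which the hpl-2 gap holds no summit. The motif was also found away from entries, 32 bp before the start of hpl-1, which had no promoter entry, and at 85, 103 and 105 bp before the start of tam-1, whose weak summit lay farther upstream. At summits, its matches lay 3 and 21 bp from the lin-36 summit, and 1 and 3 bp from the lin-15B summit, where a pair of overlapping matches form a single GA run. Upstream of K01G5.10 the match was farther from the summit, beginning at base 6 of the printed sequence, where the summit is at base 59. In windows of 151 bp, GAGAGA was found at 35.7% of the 3013 nuclear thresholded summits and before 12.9% of all protein-coding starts. The E2F-type word GCGCGAA was found 22 bp from the lin-15B summit, and occurs at 3.68% of thresholded summits and before 1.08% of starts. The other E2F-type word, GCGGGAA, lay 35 bp from the arle-14 summit, just past the start and so outside the sequence shown, and occurs at 3.68% of thresholded summits and before 1.61% of starts. The CHR-type word TTTGAA, found near the summits of let-418, tam-1 and lin-15B, was less common at thresholded summits (28.0%) than before starts (40.4%). TTCGAA, present upstream of K01G5.10 and in the gap before hpl-2, was found at 10.1% of thresholded summits and before 9.32% of starts. The E-box CACGTG, at none of the summits of the 10 genes, was found at 5.38% of thresholded summits and before 3.45% of starts. Around its strongest summit, G and C made up 49.0% of the bases at lin-36, 55.0% at lin-15B, 43.7% at arle-14, 35.8% at met-2, 35.1% at let-418, 32.5% at tam-1 and 28.5% at hpl-2. Over the thresholded summits the quartiles were 38.4%, 43.7% and 49.0%. Of the 10 genes, lin-36 alone has a thresholded promoter summit. No quartiles or motif shares were taken over the weaker summits of the pooled list, so the other genes have no like set beside them. A match is only a match of letters, and none of these shares was tested.

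The enzyme of the group and its partners come first. MET-2 is a SETDB1-type methyltransferase for lysine 9 of histone H3, and its gene (WBGene00019883, chrIII:8375300-8380848, plus strand) had no thresholded entry. The strongest promoter entry of met-2 had its summit 51 bp inside the gene, in a coding exon, and ranked 7877 in the pooled list. The stronger overlapping entry of replicate 1 ranked 12179, with its summit 228 bp upstream in the 3′ UTR of lmbr-1. Another of replicate 1, with its summit 326 bp inside met-2 and so outside the window, ranked 18426. The overlapping entry of replicate 2 ranked 4684, with its summit 38 bp inside met-2. A weaker entry 641 bp upstream, in an intron of the neighbour lmbr-1, ranked 19991 in the pooled list and 11899 in replicate 2, and replicate 1 had no entry there. The stronger replicate 1 entry ended upstream of the met-2 start and that of replicate 2 covered it, and neither was among the 3040 strongest of its list. Farther upstream, 4900 bp from the start in intergenic sequence, an entry ranked 3981 in the pooled list, 6921 in replicate 1 and 2795 in replicate 2.

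LIN-65 and ARLE-14 are cofactors that associate with MET-2. The arle-14 gene (WBGene00015145, chrIII:5692906-5693938, plus strand) had the second strongest promoter entry of the group in the pooled list, at rank 4054 with its summit 31 bp upstream of the start. It ranked 11560 in replicate 1 and 3191 in replicate 2, where the summit lay 8 bp inside the 5′ UTR. The same entry falls in the promoter window of abi-1, which starts on the other side of a gap of 165 bp and runs the other way, so it cannot be given to either gene. Of all genes, 13.6% had a promoter entry as strong in the pooled list. That gap is printed above, and the pooled summit is at base 135 of it.

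At lin-65 (WBGene00022149, chrI:1755329-1766400, plus strand) the promoter window was empty in every list. The nearest entry upstream, 1538 bp from the start in an intron of Y71G12B.10, ranked 26540 in the pooled list. A stronger one, 4117 bp upstream between Y71G12B.10 and mppa-1, ranked 7085 in the pooled list, 10129 in replicate 1 and 5974 in replicate 2. Inside the gene itself, which is the longest of the 10 at 11072 bp, the pooled list had 2 entries, at ranks 24096 and 24454, replicate 1 had 1 and replicate 2 had 4. All 151 bases before the lin-65 start are soft-masked in the reference, and G and C make up 21.2% of them, where the median before all starts was 33.1%.

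The readers of the histone mark follow. HPL-1 and HPL-2 are the HP1 proteins of the worm. The hpl-1 gene (WBGene00001995, chrX:13245390-13247044, plus strand) had no promoter entry, and within 5000 bp its strongest entry lay 4633 bp beyond its 3′ end. That entry, chrX:13251502-13251851, ranked 2548 in the thresholded list, 1586 in replicate 1 and 6746 in replicate 2. It lies 287 bp upstream of nhr-32, a nuclear hormone receptor gene, and in the promoter window of that gene. The strongest entry of replicate 2 was another, 5037 bp downstream of the hpl-1 start, at rank 3002, and the overlapping entries ranked 11700 in replicate 1 and 5166 in the pooled list. A pooled entry closer by, at rank 4633, lay 57 bp inside K08H2.7, the next gene on the other strand. On the 5′ side of hpl-1 the lists had 1 entry within 5000 bp, that of replicate 1 at rank 12362, 4579 bp upstream. The stronger entries around hpl-1 thus lay on its 3′ side, at the starts of neighbours or between genes.

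The hpl-2 gene (WBGene00001996, chrIII:10752195-10755530, minus strand) had a weak entry at its start and one of the strongest of the whole series farther upstream. The entry at the start had its summit 101 bp inside the gene, in an intron, and ranked 6994 in the pooled list and 6996 in replicate 2. Replicate 1 listed overlapping entries at the start (rank 12787) and 246 bp inside the gene (rank 8753). These summits lie inside the gene, so the printed gap does not hold them. A weaker entry in the promoter window, 923 bp upstream in an intron of rnf-113, ranked 21324 in the pooled list and 13045 in replicate 2. The overlapping entry of replicate 1 ranked 27681, with its summit 1130 bp upstream and so outside the window. The strong entry had its summit 3718 bp upstream and ranked 9 in the thresholded list, 3 in replicate 1 and 15 in replicate 2. Nearest to it was the start of tasp-1, at 59 bp, and it also lies 726 bp upstream of K01G5.10 on the other strand.

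K01G5.10, rnf-113 and hpl-2 follow each other on the minus strand, with 0 bp between the first 2 and 93 bp between rnf-113 and hpl-2. Closely spaced worm genes on the same strand are in many cases transcribed together as operons, but the annotation used marks none, and transcription of these 3 was not measured. Genes were therefore also counted by same-strand rows, in which neighbours lie no more than 500 bp apart, a step chosen after the values were seen. Of all genes 18.1% stand behind such a neighbour, and of the 10 genes hpl-2 and met-2 do. When a summit in the promoter window of any preceding gene of the row also counted, 2 of the 10 genes, lin-36 and hpl-2, had a thresholded entry, against 15.6% of all genes. In the pooled list 6 did, against 40.4%. With gaps of up to 300 bp the counts were 2 and 6, against 14.8% and 39.4% of all genes in the thresholded and pooled lists. With gaps of up to 1000 bp they were 2 and 7, the seventh being lin-65, against 16.9% and 42.1%. For met-2, the entry 568 bp upstream of its preceding neighbour lmbr-1 ranked 4884 in the pooled list, 6583 in replicate 1 and 6702 in replicate 2. On the other side of hpl-2, a thresholded entry ranked 782 lay 3989 bp beyond the 3′ end and 223 bp upstream of dkc-1.

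**Figure D2:**
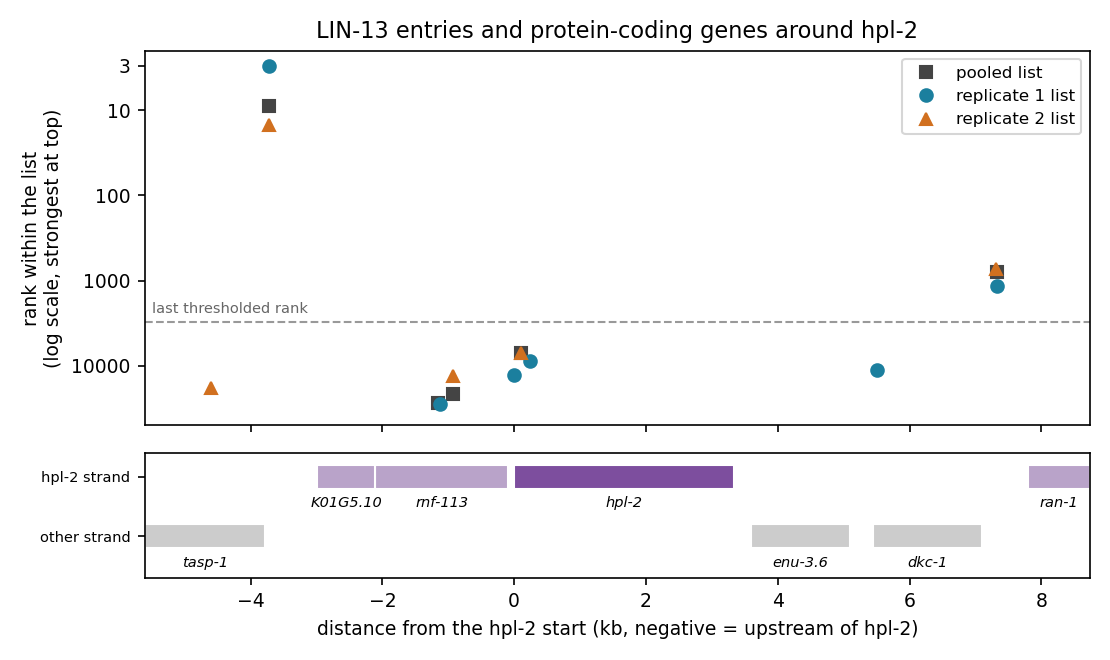
Entries around hpl-2 by distance from its start (horizontal, kb, negative is upstream of hpl-2) and rank (vertical, log scale, strongest at the top), with protein-coding genes below by strand; the dashed line is rank 3040. The entry upstream of K01G5.10 lies at ranks 3 to 15 in the 3 lists, far above those at the hpl-2 start, which lie at 6994 to 12787.

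LIN-61, an MBT-repeat protein that binds histone H3 methylated at lysine 9, had the emptiest locus. Around lin-61 (WBGene00003041, chrI:7248827-7251282, minus strand) the pooled and replicate 1 lists had 0 entries within 5000 bp of the gene. Replicate 2 had 1 there, at rank 27106, 4979 bp from the gene and in an intron of dhp-1. The gap of 658 bp to bub-1, the kinetochore kinase gene that starts on the other strand, held no entry in any list. By comparison, 71.2% of all genes had a pooled entry within 5000 bp, 79.8% one of replicate 1 and 71.8% one of replicate 2.

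LET-418 is the Mi-2 type remodelling ATPase of the NuRD and MEC complexes. The let-418 gene (WBGene00002637, chrV:5826833-5832831, plus strand) had 2 upstream sites, in intergenic sequence and in no other promoter window. The one in the promoter window, 945 bp from the start, ranked 4925 in the pooled list, 20421 in replicate 1 and 3663 in replicate 2. The other, 3691 bp upstream, ranked 11132 in the pooled list, 3826 in replicate 1 and 20915 in replicate 2. The replicates thus ordered the 2 sites in opposite ways, and within the let-418 gene all lists had 0 entries.

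The remaining genes encode other nuclear synMuv B factors. TAM-1 is a RING finger and B-box protein that limits the silencing of repeated transgenes. At tam-1 (WBGene00006523, chrV:4958603-4963102, minus strand) the promoter entry lay 910 bp upstream and ranked 12052 in the pooled list and 24232 in replicate 2. The overlapping entry of replicate 1 ranked 6144, but its summit stood 1001 bp upstream, 1 bp outside the window. Between the start and 5000 bp upstream the pooled list had 6 entries at ranks 12052 to 26616, and within the gene it had none.

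LIN-15B, a THAP-domain protein, showed the widest gap between replicates. In replicate 1 an entry 928 bp upstream of lin-15B (WBGene00023497, chrX:15726123-15732025, plus strand) ranked 1673, with a signal of 40.5. At that place neither replicate 2 nor the pooled list had an entry. A second entry of replicate 1, 454 bp upstream, ranked 20529 and was likewise absent from the other lists. Farther upstream, 2081 bp from the start, an entry ranked 12808 in the pooled list and 14937 in replicate 1, and replicate 2 had none there. Of the 3032 nuclear entries among the 3040 strongest of replicate 1, 76 (2.51%) overlapped no entry of replicate 2 and none of the pooled list, and 31 of these, that of lin-15B included, ranked 1673 or better. The 76 had a median G and C share of 41.4%, against 43.7% over all 3032, and 19 of them held GAGAGA, against 34.0% of all 3032. In the other direction the count was 8 of 3012 (0.266%). The lin-15B promoter site therefore rests on replicate 1 alone, and its place in the locus was not listed from the pooled data. A site listed in all lists lay at the far end of the locus, 4632 bp past the 3′ end of lin-15B. That thresholded entry, chrX:15736482-15736831, ranked 675, and 856 in replicate 1 and 581 in replicate 2. It lies beyond lin-15A, the synMuv A gene whose annotated start is inside the end of lin-15B, and its nearest protein-coding start is that of srg-64 at 3969 bp.

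LIN-36 is a THAP-domain protein that represses cell cycle genes alongside DREAM. At lin-36 (WBGene00003021, chrIII:8016648-8020873, minus strand) the entry chrIII:8021060-8021189 had its summit 261 bp upstream of the start. It ranked 466 in the thresholded list with a signal of 184. Replicate 1 ranked it 575 with a signal of 75.4 and replicate 2 ranked it 415 with a signal of 110, with summits 263 and 274 bp upstream. Signal values of different lists are not known to share a scale, but the ranks of this entry were close in all of them. Of all genes, 2.49% had a promoter entry as strong in the pooled list. The entry is in no other protein-coding promoter window, and a gap of 1589 bp separates lin-36 from the next protein-coding gene upstream, F44B9.2. It does lie in the window of F44B9.11, a non-coding RNA gene on the same strand that the entry overlaps at one end. The lin-36 gene is 307 kb from lin-13, the locus tagged in the transgene, and is the closest to it of the 4 genes on chromosome III.

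**Figure D3:**
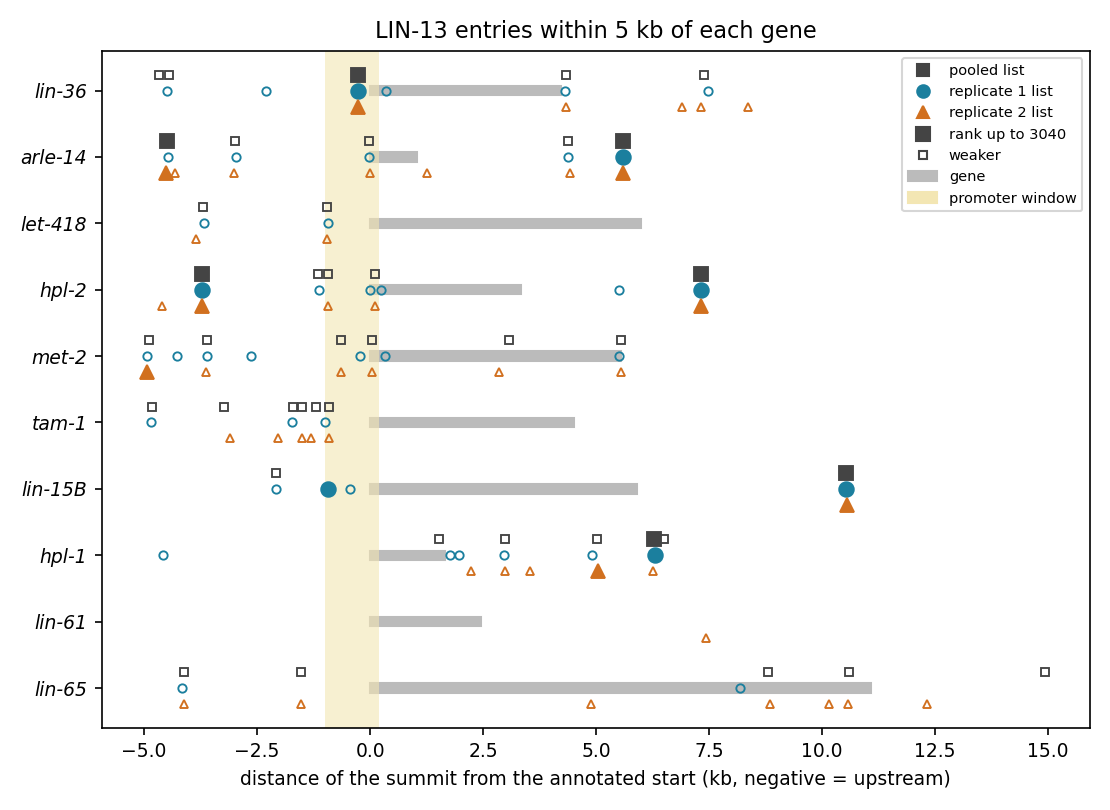
Summits within 5000 bp of each gene by distance from the annotated start (horizontal, kb, negative is upstream), for the pooled list (squares), replicate 1 (circles) and replicate 2 (triangles); large filled symbols rank up to 3040, small open ones are weaker, grey bars are genes and the yellow band is the promoter window. In that band large symbols occur for lin-36 in all lists and for lin-15B in replicate 1.

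Counted over the gene and 5000 bp on either side, 5 of the 10 genes had a thresholded entry, against 31.9% of all genes. These were lin-36, arle-14, hpl-2, hpl-1 and lin-15B. Apart from that of lin-36, all these entries lay 3718 to 4633 bp from the gene, and within 2000 bp the count was 1 of 10, against 21.3% of all genes. Those at arle-14 ranked 2739, in intergenic sequence 4306 bp upstream of rcan-1, and 1549, between lgg-3 and rgs-5 and 66 bp upstream of rgs-5. In the replicates the first ranked 4094 and 2721 and the second 2432 and 1262. In the pooled list 9 of 10 genes had an entry within 5000 bp, all but lin-61, against 71.2% of all genes. Longer genes take in more sequence under this rule.

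The promoter sites differed in how far their ranks moved between replicates. For each pooled entry, the strongest overlapping entry of each replicate was taken. The larger rank was then 5.57 times the smaller at let-418, 3.94 times at tam-1 and 3.62 times at arle-14. It was 2.60 times at met-2, 1.39 times at lin-36 and 1.25 times at hpl-2. At tam-1 the replicate 1 entry, at rank 6144, also overlaps a stronger replicate 2 entry, at rank 9364, which does not reach the pooled entry and was not used. The value for hpl-2 depends on the entry taken from replicate 1: it rests on the overlapping summit 246 bp inside the gene, and with the weaker one in the promoter window it was 1.83 times. That comparison within the window was added after the values were seen, gave the same values at the other genes and none at tam-1, where replicate 1 had no entry in the window. Over all 7591 nuclear pooled entries of ranks 3041 to 12052 with an entry in both replicates, the median was 1.84 times and the outer quartiles were 1.33 and 2.82 times. Replicate 2 gave the higher place at 5 of these 6 genes and at 52.4% of those entries. That range ends at the rank of tam-1 and leaves out lin-36, at pooled rank 466. The values over those entries are therefore no background for lin-36, 1 of the 5 genes.

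Other genes of the pathway were counted for context, from lists chosen by role but with earlier results of these data known. Of 8 DREAM genes, 7 had a thresholded promoter entry, against 11.6% of all genes, and lin-37 had a pooled one at rank 20996. The ranks in replicates 1 and 2 were 38 and 47 for lin-54, 51 and 83 for lin-9, 103 and 131 for lin-53, 177 and 208 for efl-1 and 225 and 271 for lin-35. The weaker ones were 1633 and 2059 for lin-52 and 4214 and 2581 for dpl-1. Among these, lin-54 encodes a DNA-binding subunit, lin-35 the pocket protein, and efl-1 and dpl-1 the E2F and DP subunits. The entries of lin-54, lin-53, efl-1 and lin-35 also lie in the promoter window of a neighbour.

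Among partners of LET-418 in NuRD and MEC, 4 of 6 genes had a thresholded promoter entry, against 11.6% of all genes. The zinc-finger gene mep-1 ranked 851, shared with a group of M04B2 genes, lin-40 ranked 1825, dcp-66 ranked 833 and lin-53, counted also under DREAM, ranked 126. The histone deacetylase gene hda-1 had no promoter entry in any list, and the ATPase gene chd-3 had one in the replicate 1 list alone. The SUMO pathway, several of whose genes also have synMuv phenotypes, had 3 of 5, with ubc-9 (the conjugating enzyme) at 326, uba-2 (a subunit of the activating enzyme, shared with vps-25) at 795 and smo-1 (SUMO itself) at 868. Of 6 other genes of lysine 9 methylation or with chromodomains, mrg-1 alone had one, at rank 183, shared with spcs-2. The methyltransferase gene set-25 ranked 3929 in the pooled list and set-32 had no entry there. The synMuv A list had 1 of 4, lin-38 at rank 173, shared with mrpl-37. The gene of the tagged protein, lin-13, ranked 41, where endogenous and transgene sequence cannot be told apart. These counts stand beside 1 of 10 for the genes described here and 11.6% of all genes. The differences between lists of this size were not tested.

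**Figure D4:**
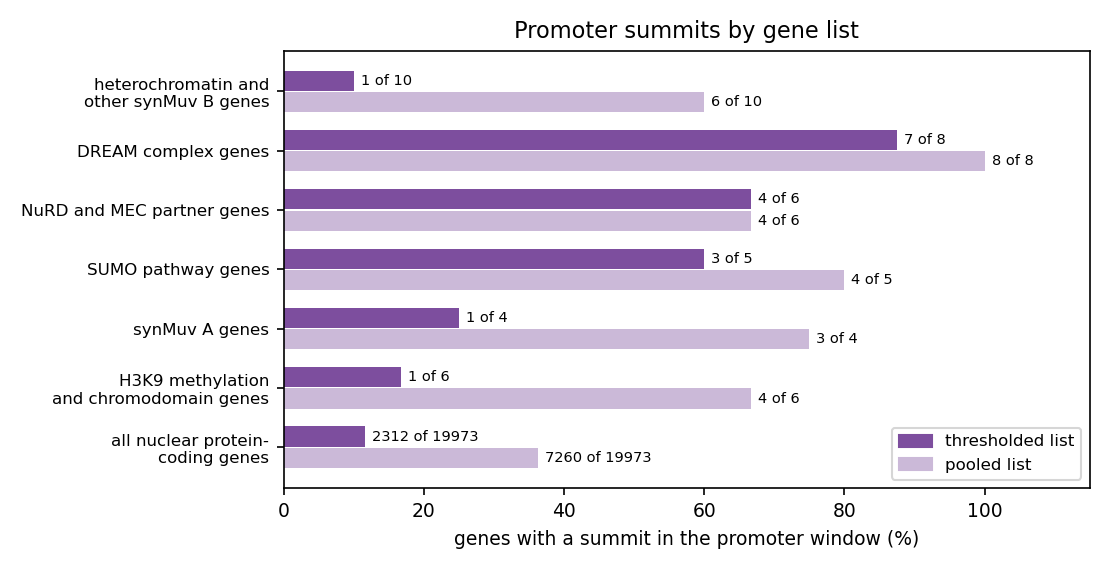
Share of genes with a summit in the promoter window (horizontal, percent) in the thresholded list (dark bars) and the pooled list (light bars), by gene list, with counts beside the bars and all 19973 nuclear protein-coding genes at the bottom. The heterochromatin and other synMuv B genes stand at 1 of 10 in the thresholded list, DREAM genes at 7 of 8 and all genes at 11.6%.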

How the data were processed

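ChIP-seq of EGFP-tagged LIN-13 in L2 larvae gave 1 group of 2 biological replicates, with fragments of 150 to 350 bp per the labels. Per the deposited file listing, the replicate and pooled lists were derived from alignments with a control, and the thresholded list came from them by irreproducible discovery rate (IDR). Which aligner, caller and IDR value were used was not given in the sources at hand. The deposited signal value of each entry has a scale that is not given, so it served to rank entries within a list. The deposited −log10 q value served for ranking in 1 alternative, and the ce10 lists were not used. Depth is unknown, and no interval is given.

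Coordinates are 1-based on ce11, and genes are from Ensembl release 115 on WBcel235, whose chromosomes no ce11 entry overran. Summits were counted per gene, over all nuclear protein-coding genes and over the members, with no test. Sites were matched between lists by an overlap of at least 1 bp. The window counts were tested on simulated data. The members and gene lists were chosen with earlier results of these data known. Named are all 10 genes, genes sharing their promoter entries, the nearest start to each thresholded entry, and pathway genes with a thresholded promoter entry; other neighbours and pathway genes were named after their values were seen. Same-strand rows were also added then. Alternatives were other promoter windows, starts, overlap rules, thresholds, distances and single replicates. Versions were Python 3.11.15, matplotlib 3.10.9, numpy 2.4.6 and scipy 1.17.1.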

Additional observations from a re-analysis of the deposited data

How the results depend on the processing

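The thresholded promoter count stayed at 1 of 10 under both other promoter windows, any transcript start, any overlap, the strongest 1520 entries and the nearest start only. With the strongest entries of a single replicate in place of the thresholded list it ran from 1 (replicate 2) to 2 (replicate 1), the second gene being lin-15B. Over all genes, the thresholded promoter share was 9.30% with 500 bp upstream to 100 bp downstream, 14.9% with 2000 bp upstream to 500 bp downstream, 12.4% with any transcript start, 12.3% with any overlap, 6.97% with the strongest 1520 entries, 8.36% with the nearest start only and 11.3% to 11.5% in single replicates. With 500 bp upstream to 100 bp downstream, the pooled count was 3 of 10 and the replicate 2 count 3 of 10, each against 26.7% of all genes. The replicate 1 count was then 5 of 10, against 28.2%. The let-418 and tam-1 summits, 902 to 955 bp upstream, fall outside that window. So do the hpl-2 summits of the pooled and replicate 2 lists, the nearest being 101 and 108 bp inside the gene. The hpl-2 summit of replicate 1, at the start, stays within it. The thresholded count near the gene was 1 within 2000 bp, against 21.3% of all genes, and 5 within 10000 bp, against 45.1%. Within 5000 bp of the start it was 3, against 27.5%. In the strongest 1520 entries it was 3, against 19.7%. It was 5 in the strongest entries of replicate 1, against 32.3%, and 6 in those of replicate 2, against 31.6%. Ranking by −log10 q moved lin-36 to rank 1, which 2426 pooled entries share. No paired analysis was possible because the study has 1 group.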
